A study of Mus musculus with 10 samples.

Results

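The 10 genes described here encode carriers of bile acids, bilirubin conjugates and other organic anions in the liver, together with the exporters that move bile lipids across the canalicular membrane. They were chosen by name: Slc10a1, Abcb11, Abcb4, Abcc2, Abcc3, Abcg5, Abcg8, Slco1a1, Slco1a4 and Slco1b2, 10 of the 41388 genes in the tables. The name of the set covers most of them but not all. Abcb4 moves phosphatidylcholine, and the proteins of Abcg5 and Abcg8 work as a dimer that exports sterols, so that these 3 genes encode lipid exporters of the canaliculus rather than carriers of bile acids or organic anions.

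RNA of whole liver was sequenced in 10 mice aged 10 weeks. Reciprocal crosses joined BFMI860-12/Hber (BFMI), an obese inbred line of Berlin fat mice, with the lean strain C57BL/6NCrl (B6N). F1 males of a BFMI mother and a B6N father are called matBFMI (n = 3, each from a different mother), and F1 males of a B6N mother and a BFMI father are called patBFMI (n = 3, again from different mothers). The F1 males received a high fat diet from day 21 to day 70. Each inbred strain gave 1 male and 1 female, for which the sample records name a standard breeding diet and the design text a high fat diet. The inbred groups thus hold 1 animal of each sex, and the F1 groups hold no females.

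The libraries held 46988713 to 96023811 reads assigned to genes. The 3 matBFMI libraries were run on lane 6, the 3 patBFMI libraries on lane 5, the BFMI male on lane 1 and the other 3 inbred libraries on lane 4, and in the F1 males the cross and the lane thus cannot be told apart. patBFMI 1 stood apart from the other 5 F1 libraries by its number of genes with a count, 32421 against 22095 to 26694. The inbred libraries had 29942 to 34572 such genes. Xist and 4 Y-linked genes fitted the sex given for each library. Of the 8 hepatocyte markers looked for, 7 were in the table and summed to 61929 to 87773 CPM (counts divided by library sizes scaled with TMM), whereas 10 markers of bile duct cells summed to 44.2 to 92.7 CPM, and none of either list was at 0 in every library. In RNA of whole tissue, fewer cells of a type and less RNA per cell cannot be told apart.

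Hepatocytes take up bile acids from portal blood with the sodium-dependent carrier NTCP (Slc10a1) and with organic anion transporting polypeptides (OATPs, the Slco genes), which also take up bilirubin, steroid conjugates and many drugs. At the canaliculus the bile salt export pump BSEP (Abcb11) drives the flow of bile, MRP2 (Abcc2) exports conjugated bilirubin, and Abcb4 and the Abcg5/Abcg8 dimer add phospholipid and sterols. MRP3 (Abcc3) works in the opposite membrane and returns conjugates to the blood. The nuclear receptor FXR (Nr1h4), which binds bile acids, activates Abcb11, and the growth hormone axis sets sex differences of several OATPs in the mouse.

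The promoter sequences of 4 members are shown because the differences described below fall on them: Abcb11 differed most between the strains, Slco1a4 and Slco1a1 are neighbours with unlike levels by sex, and Abcg5 and Abcg8 share 1 promoter region. Each runs from 250 bases before to 50 bases after a RefSeq transcript start, 5′ to 3′ on the strand of the gene, in the reference genome (GRCm38.p6). The reference is of a C57BL/6 strain, and alleles of BFMI were not analysed here. Capitals mark the nuclear receptor hexamer AGGTCA and the GATA factor letters AGATAA, on either strand.
Abcb11, chr2:69342567-69342866, minus strand: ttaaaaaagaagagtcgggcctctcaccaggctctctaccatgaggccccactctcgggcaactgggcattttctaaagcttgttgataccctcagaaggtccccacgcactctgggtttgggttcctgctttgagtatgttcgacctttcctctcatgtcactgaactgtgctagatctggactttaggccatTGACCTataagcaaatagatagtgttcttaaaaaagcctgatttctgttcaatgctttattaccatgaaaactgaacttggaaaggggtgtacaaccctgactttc
Abcg8, chr17:84682871-84683170, plus strand: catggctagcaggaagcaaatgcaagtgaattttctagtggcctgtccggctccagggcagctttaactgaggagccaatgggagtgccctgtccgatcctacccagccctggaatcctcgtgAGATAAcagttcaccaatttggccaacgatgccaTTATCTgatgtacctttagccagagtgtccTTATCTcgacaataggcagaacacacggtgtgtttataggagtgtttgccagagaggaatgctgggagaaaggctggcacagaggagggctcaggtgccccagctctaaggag
Slco1a4, chr6:141856171-141856470, minus strand: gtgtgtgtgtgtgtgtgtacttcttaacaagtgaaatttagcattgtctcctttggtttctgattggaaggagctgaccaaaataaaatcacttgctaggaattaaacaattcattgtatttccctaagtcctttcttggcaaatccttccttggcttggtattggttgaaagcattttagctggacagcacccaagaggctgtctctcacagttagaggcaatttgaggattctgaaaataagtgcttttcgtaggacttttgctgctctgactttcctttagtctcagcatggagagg
Slco1a1, chr6:141946913-141947212, minus strand: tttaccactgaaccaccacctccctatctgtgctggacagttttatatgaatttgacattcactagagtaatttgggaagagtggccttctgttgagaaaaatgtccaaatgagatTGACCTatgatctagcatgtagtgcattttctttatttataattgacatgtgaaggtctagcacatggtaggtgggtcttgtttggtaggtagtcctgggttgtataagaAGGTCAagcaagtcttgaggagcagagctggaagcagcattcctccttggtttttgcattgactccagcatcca

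In the Abcb11 window 1 hexamer lay at bases -56 to -51 from the transcript start. The hexamer occurs in 16.3% of the 32851 promoter windows of this length, and in windows of 5 members (Abcb11, Abcc2, Slc10a1, Slco1a1 and Slco1b2). All motifs were searched in their exact letters, without mismatches. The exact inverted repeat of 2 such hexamers with 1 base between, the form that FXR binds, was in 3 of the 32851 windows (0.00913%) and in no member window. Imperfect repeats were not searched. In the Abcb11 window the letters aggcca lie 1 base before the hexamer, so that the stretch differs from the exact repeat in 1 letter. As no search was made for such stretches, their share of all windows and of the member windows is not known. The Slco1a1 window held 2 hexamers, starting at -134 and -24, and the Slco1a4 window held none of the 7 motifs searched. The STAT letters TTCNNNGAA (8.30% of all windows) were in windows of Slc10a1 and Slco1b2. Direct repeats of the hexamer with 1 base (0.0396% of all windows) or 4 bases between (0.0152%), which contain it, and the HNF1 palindrome (0.00913%) were in none of the 11 member windows. The GATA letters were in 11.2% of all windows at least once. In the Abcg8 window shown they occurred 3 times, starting at -127, -93 and -63 from its start, and in the other Abcg8 window not at all. This motif was added after the windows had been read. The start of Abcg5 lies on the other strand 110 bases away, so the same 3 matches are in its window. Such matches describe letters and not binding. Of the 10 members, 9 had a window in the RefSeq table, and 2 of them had more than 1.

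Positions of the members are given in GRCm38 (GENCODE M21). Slco1b2 (chr6:141629518-141686646, plus strand), Slco1a4 (chr6:141805440-141856199, minus strand) and Slco1a1 (chr6:141907282-141946962, minus strand) form part of 1 cluster, with 118793 bases between the first pair and 51082 between the second. Abcg5 (chr17:84658234-84683011, minus strand) and Abcg8 (chr17:84676302-84700333, plus strand) overlap, and 82 exon bases belong to both. Abcb11 lies at chr2:69238282-69342616 on the minus strand and shares 155 of its 5146 exon bases with transcripts on the other strand. The Slco genes and the other 4 members share no exon base with another gene: Slc10a1 (chr12:80953183-80968705), Abcb4 (chr5:8893717-8959231), Abcc2 (chr19:43782192-43840740) and Abcc3 (chr11:94343295-94392997). The best-scoring aligned stretch of the Slco1a1 transcript matched Slco1a4 at 86.3% identity over 1845 bases and Slco1a5 at 87.6% over 1841 bases. That of the Slco1a4 transcript matched Slco1a1 at 81.8% over 2893 bases. Reads of this family may thus be split uncertainly between its genes. Slco1a5 itself was at 0.894 to 1.44 CPM.

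Uptake carriers led the members in mRNA per length. In the deposited RPKM the median of the 6 F1 males was 381 for Slco1b2, 297 for Slc10a1 and 199 for Slco1a1. The canalicular exporters followed, with 131 RPKM for Abcb11, 73.7 for Abcb4 and 41.1 for Abcc2. Basolateral Abcc3 had 22.5 RPKM, the sterol pair 18.4 (Abcg8) and 17.5 (Abcg5), and Slco1a4 stood last with 6.78. Not every step of this order was larger than the spread over libraries: Abcc3 was above Abcg8 in 6 of 10 libraries, and Abcg8 was above Abcg5 in only 3 of 10. Slco1b2 was above Slc10a1 in 9 libraries, and Slc10a1 above Slco1a1 in all 10. Abcb4 and Abcc2 changed places when RPKM was computed from TMM-scaled counts and the summed exon length of each gene.

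**Figure D1:**
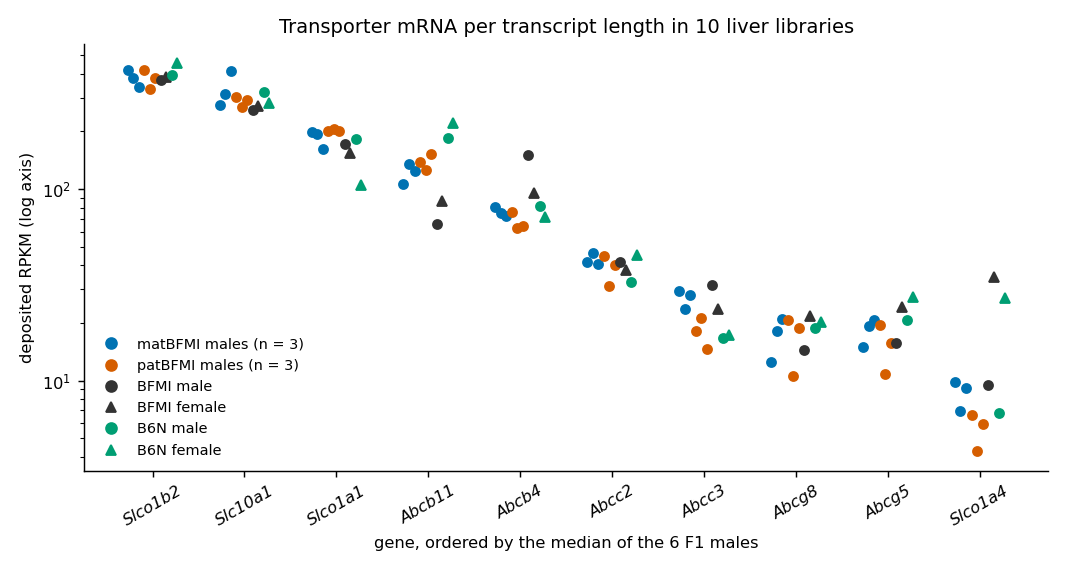
Deposited RPKM (log axis) of the 10 genes in each of the 10 liver libraries, ordered by the median of the 6 F1 males (circles: males, triangles: females, colours: cross or strain). The order runs from Slco1b2 (median 381) to Slco1a4 (median 6.78), and both females lie above all males for Slco1a4 and, by less, for Abcg5.

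Over the 10 libraries Slco1a4 varied most, with a range of 2.80 on the log2 scale, followed by Abcb11 with 1.75 and Abcb4 with 1.20. Slco1b2 and Abcc2 varied least, with 0.43 and 0.57. In what follows levels are CPM after TMM scaling over all 10 libraries, and differences are log2 fold changes fitted with edgeR, with Benjamini-Hochberg adjustment over all genes tested and a threshold of adjusted p 0.05. All 10 members had at least 10 counts in every fit and entered every test.

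**Figure D2:**
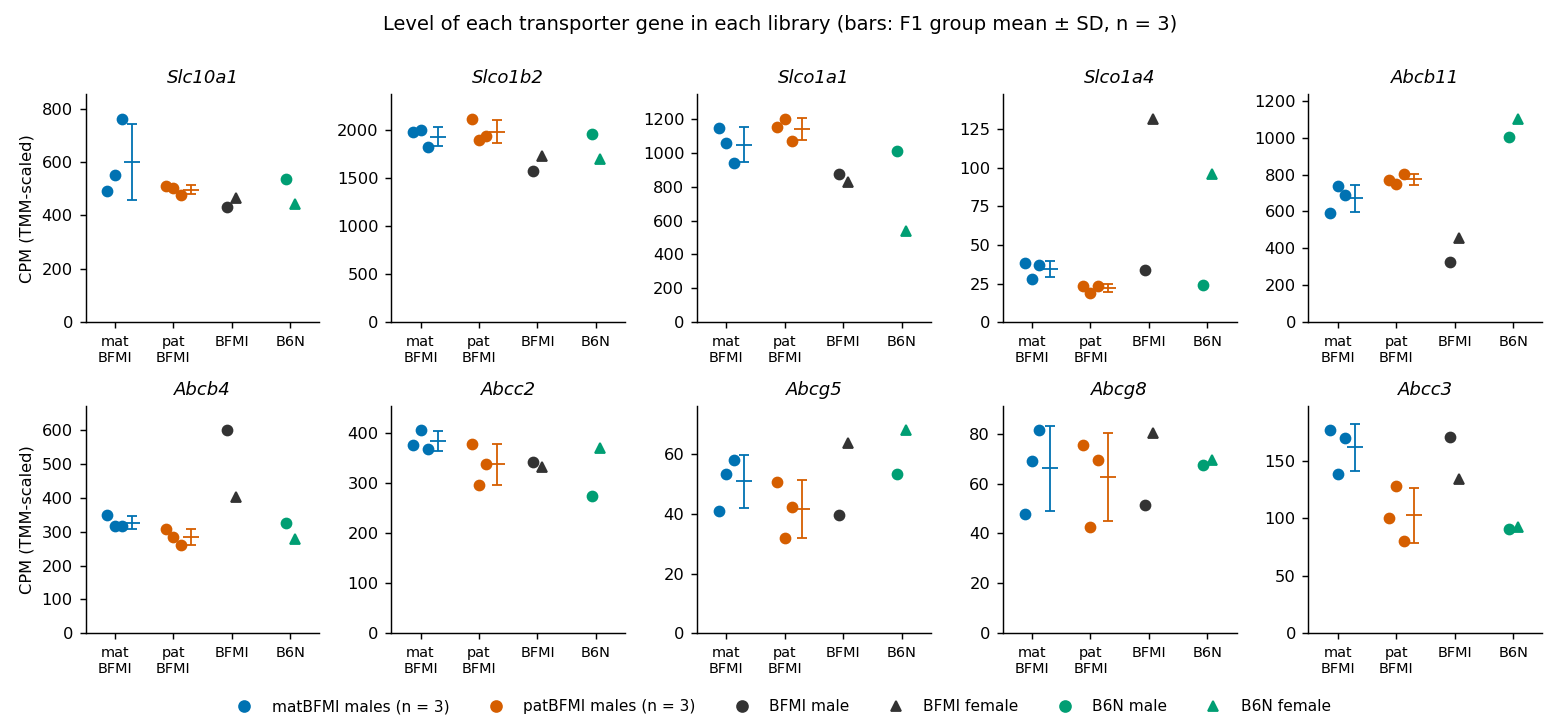
CPM of each transporter gene in each library, from 0 on a linear axis (circles: males, triangles: females), with mean ± SD of the 3 matBFMI and the 3 patBFMI males as bars. The BFMI libraries lie below and the B6N libraries above all F1 males for Abcb11, and the 2 females lie above all males for Slco1a4 and, by less, for Abcg5.

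The strain comparison asks how the obese and the lean parental strain differ. The members' largest difference was in Abcb11, the bile salt export pump, which was lower in BFMI, while Abcb4, the phospholipid exporter of the same membrane, was higher in BFMI. These were the 2 of 10 members past the threshold, where 6.67% of all genes passed (1332 of 19974). Both libraries of one strain lay above both of the other for 3 of 10 members (Abcb11, Abcb4 and Abcc3), beside 43.8% of all genes tested.

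Abcb11 was at 328 CPM in the BFMI male and 457 in the BFMI female, against 1002 in the B6N male and 1103 in the B6N female. The 4 libraries fell apart by strain without overlap, and all 6 F1 males, at 592 to 805 CPM, lay between the 2 inbred males. BFMI was lower by a log2 fold change of -1.44 (SE 0.149, 95% confidence interval -1.77 to -1.11, adjusted p = 0.000268). Within males B6N was 3.05-fold higher and within females, which were both on lane 4, 2.41-fold higher. With only the females as inbred libraries the log2 fold change was -1.29, and with only the males it was -1.61. Both fits kept the F1 males, which alone gave their spread.

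Abcb4 was at 601 CPM in the BFMI male and 403 in the BFMI female, and at 325 and 278 in the male and the female of B6N. Both BFMI libraries were higher, and the BFMI male stood well above the rest. The log2 fold change of BFMI over B6N was 0.71 (SE 0.145, 95% confidence interval 0.39 to 1.03, adjusted p = 0.0159). This call rests on the males. It was lost without the BFMI male (0.57), without the B6N male (0.53) and with the 2 females on lane 4 as the only inbred libraries (0.52). These fits kept the F1 males, which alone gave their spread. The call was also lost on the deposited RPKM with limma (0.64, adjusted p = 0.155).

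Abcc3, which returns conjugates to the blood, was at 171 CPM in the BFMI male and 134 in the BFMI female, and at 90.6 and 92.4 in the male and the female of B6N. The strains did not overlap, but the log2 fold change of 0.73 (SE 0.212, 95% confidence interval 0.26 to 1.20) missed the threshold (adjusted p = 0.0758). It passed with DESeq2 (adjusted p = 0.00716), without the filter on low counts (adjusted p = 0.000653), in the 4 inbred libraries alone (adjusted p = 0.0117), without patBFMI 2 (adjusted p = 0.032) and without patBFMI 3 (adjusted p = 0.049).

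The other 7 members did not pass. Slc10a1, the sodium-dependent bile acid carrier, was at 431 and 467 CPM in the BFMI male and female and at 535 and 443 in those of B6N, so the strains overlapped (log2 fold change -0.12, 95% confidence interval -0.56 to 0.32, adjusted p = 0.852). Slco1b2, the main OATP of mouse hepatocytes, was at 1573 and 1730 CPM in BFMI and at 1957 and 1693 in B6N (log2 fold change -0.14, 95% confidence interval -0.43 to 0.15, adjusted p = 0.684). Abcc2, the exporter of bilirubin conjugates, was at 343 and 333 CPM in BFMI and at 274 and 370 in B6N (log2 fold change 0.08, 95% confidence interval -0.28 to 0.45, adjusted p = 0.874). For all 3 the strains overlapped. The sterol exporters had log2 fold changes of -0.26 (Abcg5, 95% confidence interval -0.75 to 0.22) and -0.09 (Abcg8, -0.74 to 0.56), and Slco1a4 and Slco1a1 of 0.47 (0.12 to 0.83, adjusted p = 0.129, against 0.0264 without the filter on low counts) and 0.21 (-0.21 to 0.63, adjusted p = 0.677).

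Macrophage genes moved with strain as well. The 12 Kupffer cell and macrophage markers summed to 311 to 369 CPM in BFMI and to 528 to 529 in B6N. Of these markers 6 of 12 were called lower in BFMI, beside 6.67% of all genes called in either direction. The 5 erythroid markers summed to 732 to 917 CPM in BFMI and 225 to 394 in B6N. None of the markers of either list was at 0 in every library. Their part in the differences of Abcb11 and Abcb4 was not tested.

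**Figure D3:**
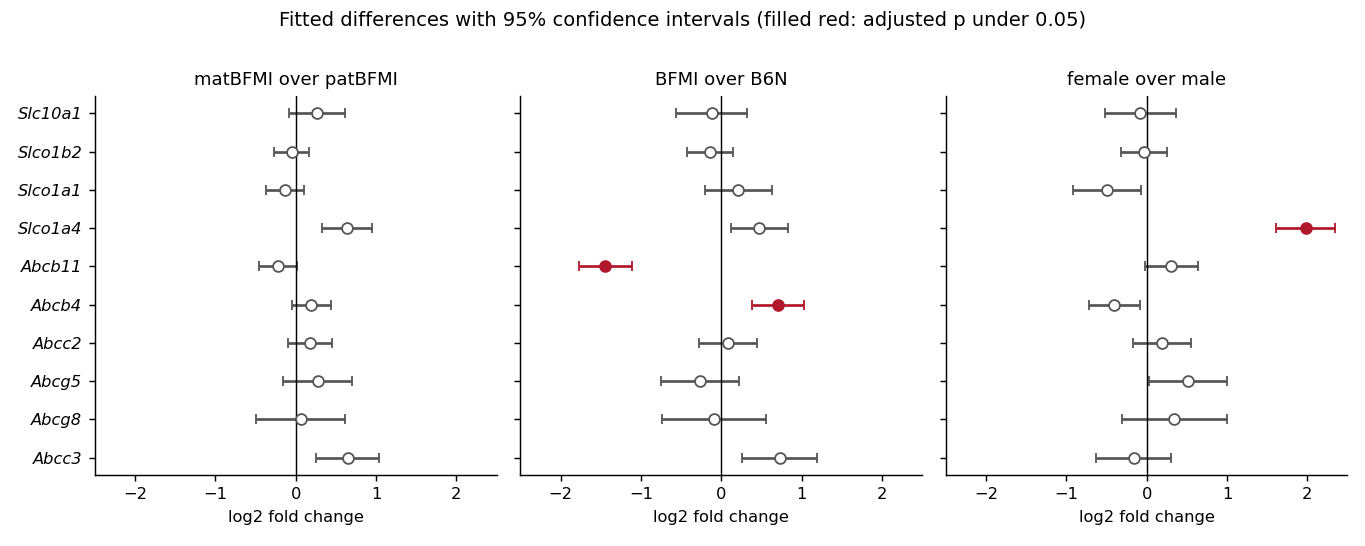
Log2 fold changes of the 10 genes with 95% confidence intervals, for matBFMI over patBFMI (3 males against 3), BFMI over B6N and female over male (both from the 4 inbred libraries, with the spread mostly from the F1 males). Filled red points passed an adjusted p of 0.05: none in the F1 males, Abcb11 (-1.44) and Abcb4 (0.71) between strains and Slco1a4 (1.98) between sexes.

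The sex comparison rests on the same 4 inbred libraries. Slco1a4, an OATP of broad range that is known as female-biased in mouse liver, was the only member past the threshold, where 0.556% of all genes passed (111 of 19974). It was at 132 CPM in the BFMI female and 96.2 in the B6N female, and at 33.8 and 24.1 in the males of these strains. Both females were above all 8 males of the study, and the lower female was 2.52-fold above the highest male. The log2 fold change was 1.98 (SE 0.166, 95% confidence interval 1.61 to 2.35, adjusted p = 0.000664). The male level was 0.257-fold the female level in BFMI and 0.250-fold in B6N, where both libraries were on lane 4. The call was lost on the deposited RPKM with a pseudocount of 0.1 (1.91, adjusted p = 0.0966).

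Slco1a1, its neighbour in the cluster and an OATP known as male-biased, did not pass. It was at 877 CPM in the BFMI male and 830 in the BFMI female, and at 1011 in the B6N male and 537 in the B6N female. Both males were above both females, but the gap was small in BFMI, at 0.946-fold of the male level, and large in B6N, at 0.531-fold. The log2 fold change of female over male was -0.50 (SE 0.189, adjusted p = 0.488). It came to -0.94 without the BFMI male and -0.91 without the BFMI female, and to -0.08 without either B6N library. The test of the difference between the strains in this sex difference gave 0.83 (SE 0.264, 95% confidence interval 0.23 to 1.43, unadjusted p = 0.012, adjusted p = 0.48), and thus did not pass. For Slco1a4 this interaction was -0.04 (95% confidence interval -0.79 to 0.72, adjusted p = 0.98). None of the 10 members passed edgeR's interaction test, where 0.03% of all genes did, and Slco1a1 was the 1 of 10 with an unadjusted p under 0.05, beside 7.87% of all genes. DESeq2 called none of the members in the interaction either.

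As a share of Slco1a1 counts within the same library, Slco1a4 was at 15.9% and 17.9% in the females and at 2.38% and 3.86% in the inbred males. In the 6 F1 males it was at 1.57% to 3.90%. The females lay apart from every male in this ratio, which does not depend on how libraries are scaled.

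Both females were also above both inbred males for the sterol exporters. Abcg5 was at 63.6 and 68.1 CPM in the BFMI and the B6N female and at 39.8 and 53.4 in the males (log2 fold change 0.51, 95% confidence interval 0.03 to 1.00, adjusted p = 0.588), and both females were above all 8 males, the lower one by 1.10-fold. Abcg8 was at 80.4 and 69.5 CPM in the females and at 51.5 and 67.5 in the males (0.34, 95% confidence interval -0.31 to 1.00, adjusted p = 0.95). Neither passed, and without overlap of the sexes 4 of 10 members stood beside 25.1% of all genes. Abcb4 was lower in both females than in the male of the same strain (-0.40, 95% confidence interval -0.72 to -0.08, adjusted p = 0.435). The other 5 members had log2 fold changes from -0.16 (Abcc3) to 0.31 (Abcb11) and did not pass.

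The F1 comparison asks how males of the reciprocal crosses differ. None of the 10 members passed edgeR's test at an adjusted p of 0.05, where 0.143% of all genes passed (24 of 16797). At an unadjusted p under 0.05 there were 2 of 10 members, beside 9.85% of all genes. DESeq2 called the same 2 members, Slco1a4 and Abcc3, and 307 genes in all, edgeR without the filter on low counts called these 2 and 696 genes in all, and limma on the deposited RPKM called no gene. Groups without overlap occurred for 4 of 10 members, beside 15.3% of all genes: Slco1a4, Abcc3 and Abcb4 were higher and Abcb11 lower in every matBFMI male.

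Slco1a4 was at 38.2, 28.2 and 36.8 CPM in the matBFMI males and at 23.2, 18.9 and 23.6 in the patBFMI males. The groups did not overlap, with means of 34.4 ± 5.40 and 21.9 ± 2.63 CPM (SD, n = 3 each). The log2 fold change was 0.64 (SE 0.137, 95% confidence interval 0.33 to 0.95), with an adjusted p of 0.155 by edgeR and 0.00356 by DESeq2. Both F1 groups stayed far under the 2 females. The log2 ratio of Slco1a4 to Slco1a1 was -4.94 ± 0.27 in matBFMI and -5.71 ± 0.25 in patBFMI (SD, n = 3 each), a difference of 0.77 with p = 0.1 in an exact two-sided permutation test, the smallest p that 3 against 3 animals allow.

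Abcc3 was at 177, 139 and 170 CPM in matBFMI and at 100.03, 128 and 80.4 in patBFMI. Every matBFMI male was higher, with means of 162 ± 20.4 and 103 ± 23.9 CPM (SD, n = 3 each). The log2 fold change was 0.64 (SE 0.171, 95% confidence interval 0.26 to 1.03), with an adjusted p of 0.257 by edgeR and 0.0104 by DESeq2. Lane and cross cannot be told apart for this gene or for Slco1a4.

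Abcb11 was at 592, 735 and 687 CPM in matBFMI and at 771, 748 and 805 in patBFMI. The groups did not overlap, but the log2 fold change was only -0.22 (SE 0.106, 95% confidence interval -0.46 to 0.02, adjusted p = 0.547). Abcb4 was at 349, 315 and 317 CPM in matBFMI and at 307, 284 and 261 in patBFMI, again apart by little (0.19, 95% confidence interval -0.05 to 0.43, adjusted p = 0.61). For Abcb4, 5 of the 6 F1 males lay below both inbred males. Of the 10 members, 6 had F1 and strain differences of the same sign, beside 59.3% of all genes. Among the members whose F1 groups did not overlap this held for 4 of 4, beside 65.6% of all 2574 such genes.

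In the remaining members the F1 groups overlapped. Slc10a1 was at 490, 551 and 762 CPM in matBFMI and at 508, 502 and 478 in patBFMI, with matBFMI 3 well above the other males (log2 fold change 0.26, 95% confidence interval -0.09 to 0.62, adjusted p = 0.625). The difference rests on that library: it came to 0.059 without matBFMI 3 and to at most 0.39 without any 1 of the others. Slco1b2 was at 1973, 1996 and 1819 CPM against 2116, 1893 and 1931 (-0.05, 95% confidence interval -0.27 to 0.16, adjusted p = 0.902). Slco1a1 was at 1148, 1056 and 944 CPM against 1151, 1203 and 1073 (-0.14, 95% confidence interval -0.37 to 0.10, adjusted p = 0.721). For these 3 uptake carriers the intervals lay between -0.37 and 0.62. Abcc2 was at 377, 407 and 369 CPM against 378, 296 and 339 (0.17, 95% confidence interval -0.10 to 0.44, adjusted p = 0.683).

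The sterol exporters varied within each cross and together. Abcg5 was at 41.0, 53.5 and 58.1 CPM in matBFMI and at 50.9, 31.8 and 42.3 in patBFMI (0.27, 95% confidence interval -0.16 to 0.70, adjusted p = 0.681). Abcg8 was at 47.9, 69.0 and 81.5 CPM in matBFMI and at 75.6, 42.7 and 69.6 in patBFMI (0.06, 95% confidence interval -0.49 to 0.61, adjusted p = 0.961). In both genes matBFMI 1 was the lowest of its group and patBFMI 2 the lowest of all F1 males. The log2 ratio of Abcg8 to Abcg5 was 0.36 ± 0.13 in matBFMI and 0.57 ± 0.15 in patBFMI (SD, n = 3 each; exact two-sided permutation p = 0.2) and ran from 0.03 to 0.72 over all 10 libraries. The reads of the 82 shared exon bases cannot be given to 1 of these genes where counting does not use the strand.

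**Figure D4:**
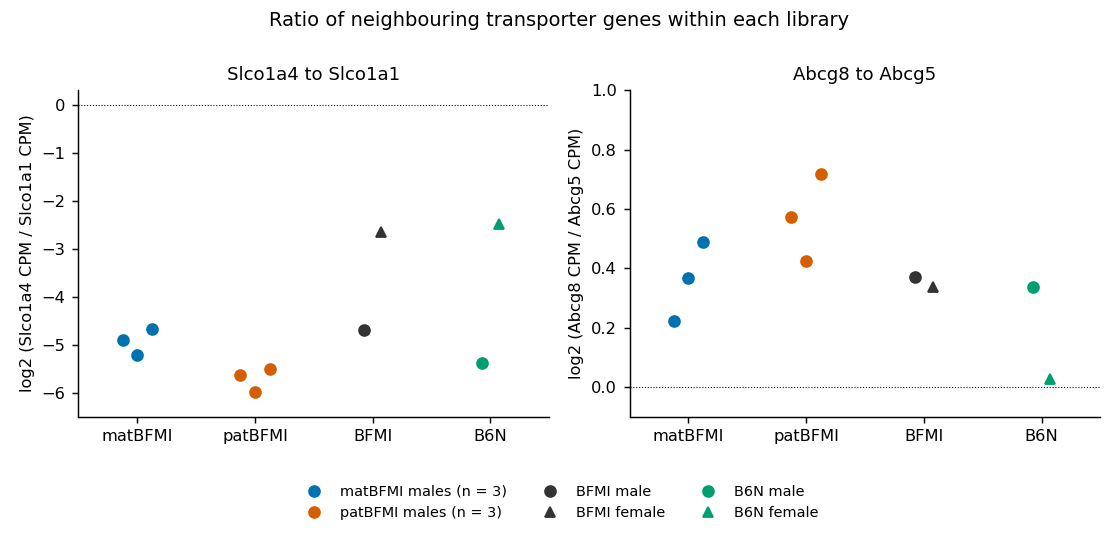
Log2 ratio of CPM within each library for 2 pairs of neighbouring genes, Slco1a4 to Slco1a1 (left) and Abcg8 to Abcg5 (right; circles: males, triangles: females). In the left panel the 2 females (-2.65 and -2.48) lie above every male, and in the right panel all 10 libraries lie between 0.03 and 0.72.

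The sum of 12 macrophage markers was 252 to 287 CPM in matBFMI and 316 to 330 in patBFMI, without overlap, and 8 female-biased liver enzymes summed to 33.7 to 40.3 and 19.6 to 26.6 CPM. The 7 male-biased enzymes summed to 2682 to 3572 CPM in matBFMI and 4016 to 5128 in patBFMI. No gene of these 3 lists passed in the F1 comparison by edgeR, where 0.143% of all genes passed. An unadjusted p under 0.05 was found for 9 of 12, 2 of 8 and 5 of 7 of their genes, beside 9.85% of all genes. DESeq2 called 2 male-biased enzymes lower in matBFMI (Mup20 and Selenbp2). It called none of the other lists, but gave an adjusted p for only 5 of the 8 female-biased enzymes. The replicate block and the fit without the filter called Elovl3, Mup20 and Selenbp2 lower, and library size scaling called Selenbp2. Without the filter 5 female-biased enzymes were called higher (A1bg, Cyp17a1, Cyp2b9, Cyp3a41a and Cyp3a44), and no macrophage marker was called. Whether these sums bear on the F1 values of Slco1a4 and Abcc3 was not tested.

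Beside the calls on the pathway lists below, 6.67% of all genes passed edgeR's test between strains, 0.556% between sexes and 0.143% in the F1 males. Among 22 other hepatic carriers, 21 were tested between the strains and 1 passed: Slco2a1, a prostaglandin carrier, was lower in BFMI (-0.56, adjusted p = 0.0194). Without the filter on low counts 4 other carriers were called higher in BFMI: Slc10a2 (0.66), Slc22a3 (0.95), Slc22a7 (0.65) and Slc22a18 (0.53). Slc10a2 and Slc22a3 were also called in the 4 inbred libraries alone, and Slc22a18 without matBFMI 3. Of 17 other ABC and lipid exporters 1 passed between strains, Abcc6, an exporter of hepatocytes tied to mineralisation, at 45.5 and 55.9 CPM in BFMI and 128 and 132 in B6N (-1.37, adjusted p = 0.000999, but 0.0562 with limma on log2(RPKM + 0.1)). Abcg2 of the same list, a canalicular exporter of xenobiotics and sulfate conjugates, was called higher in BFMI by DESeq2 (0.75, adjusted p = 0.00816), with library size scaling, without the filter, in the 4 inbred libraries alone and without patBFMI 2, but not in the edgeR fit used here. Between sexes Abcg2 was lower in females, at 93.3 and 41.6 CPM against 170 and 134 in the males of BFMI and B6N (-1.27, adjusted p = 0.0462). In the F1 males none of the 20 carriers and 15 exporters tested passed by edgeR, with 5 and 0 at an unadjusted p under 0.05, beside 9.85% of all genes. The lowest p was that of Slc22a7, an organic anion carrier, at 14.5, 6.69 and 11.2 CPM in matBFMI and 18.0, 22.3 and 27.4 in patBFMI (-1.08, adjusted p = 0.189). The groups did not overlap, and Slc22a7 was called by DESeq2 (adjusted p = 0.000559) and without the filter (adjusted p = 1.1e-14). Slc10a2 was called higher in matBFMI without the filter (0.43, adjusted p = 0.0229).

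Of 18 nuclear receptors and factors 1 passed edgeR's test between the strains, Onecut1, a hepatocyte transcription factor, which was lower in BFMI (-2.13, adjusted p = 0.0223). Nr1h4 (FXR) was at 95.7 to 107 CPM in the F1 males and had a strain difference of 0.05 (95% confidence interval -0.21 to 0.32, adjusted p = 0.893). Its target Nr0b2, which encodes the repressor SHP, had -0.47 (95% confidence interval -1.13 to 0.20, adjusted p = 0.496). No other call was made on this list in the edgeR fits used here. Esr1, the oestrogen receptor, was called higher in females by DESeq2 and in the 4 inbred libraries alone. In the latter Onecut1 was called lower in females. DESeq2 called Ahr and Cebpa in the interaction. Nr1i3 was called higher in BFMI in the 4 inbred libraries alone, without the filter and without patBFMI 2. Without the filter on low counts 2 of the list were called in the F1 males (Esr1 and Foxa2), 4 between strains, 3 between sexes and 3 in the interaction. None of 20 genes of the canalicular scaffold and vesicle traffic passed by edgeR in any comparison. In the F1 males Cldn1, a tight junction protein, was at 68.3 to 85.6 CPM in matBFMI and 117 to 140 in patBFMI (-0.72, adjusted p = 0.0871), and it was called by DESeq2 (adjusted p = 1.1e-05), without the filter (adjusted p = 6.7e-05) and in the replicate block (adjusted p = 0.0444).

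In the growth hormone axis, 2 of 12 genes passed edgeR's test between the strains, beside 6.67% of all genes. Socs2, an inhibitor of growth hormone signalling and itself a target of it, was at 3.08 and 5.32 CPM in BFMI and 57.1 and 48.2 in B6N (-3.70, adjusted p = 0.00171), and Stat5a, a transducer of that signal, was higher in BFMI (0.71, adjusted p = 0.0248). Between sexes Cux2, a female-specific liver factor, was higher in females (3.81, adjusted p = 0.0116), as was Trim24, a cofactor of nuclear receptors (1.57, adjusted p = 0.0324). The female level of Cux2 was 3.51 CPM in BFMI and 19.6 in B6N, and its strain by sex interaction missed the threshold by edgeR (adjusted p = 0.197) but passed with DESeq2 (-2.65, adjusted p = 0.0499) and without the filter (-2.51, adjusted p = 0.000386). In the F1 males Cish, another inhibitor of cytokine signalling, had a log2 fold change of 2.46 that missed the threshold (adjusted p = 0.0674). It passed with library size scaling (adjusted p = 0.0483), DESeq2 (adjusted p = 0.000901), the replicate block (adjusted p = 0.025) and without the filter (adjusted p = 3.2e-40). The calls of Slco2a1, Onecut1 and Stat5a were lost without any 1 of the 4 inbred libraries (adjusted p from 0.0525 to 0.265), that of Socs2 without the BFMI male (adjusted p = 0.0535) or the B6N male (adjusted p = 0.0545), and that of Cux2 without the B6N female (adjusted p = 0.0894). Those of Abcg2 and Trim24 were lost without any 1 of the matBFMI or B6N libraries (adjusted p from 0.051 to 0.443), and that of Abcg2 also without patBFMI 3 (adjusted p = 0.0556). With limma on the deposited RPKM none of Slco2a1, Onecut1, Stat5a, Abcg2, Cux2 and Trim24 was called. Slco2a1 was also not called without the filter (adjusted p = 0.103) or in the 4 inbred libraries alone (adjusted p = 0.0718). In the F1 males alternatives called further genes of the axis. Bcl6 was lower in matBFMI in the replicate block (-1.50, adjusted p = 0.0354) and without the filter (-1.47, adjusted p = 2.5e-30). Without the filter Socs2 was also called lower (-0.76, adjusted p = 5.5e-08) and Trim24 higher (0.51, adjusted p = 0.00236). Trim24 was called without patBFMI 2 as well (0.67, adjusted p = 0.0498).

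The genes whose centred log2 levels lay closest to a member over the 10 libraries were found among all 19974 genes by the root mean square difference. For Slco1a4 these were Abcd2, a peroxisomal ABC transporter of fatty acids, at 0.36, Stambpl1 at 0.38 and Trpm6 at 0.40. Abcd2 was at 93.8 and 94.1 CPM in the females and 22.9 to 30.3 in matBFMI, and in patBFMI at 10.7, 12.8 and 13.01. Nearest to Abcb11 were Rps15a, Rps18-ps1 and Pcolce2, at 0.15 to 0.16, and nearest to Abcb4 were Slc4a4, Trp53inp2 and Cd24a, at 0.10 to 0.11. With 10 libraries such likeness mostly follows the inbred libraries, which had the widest differences in these 3 members.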

How the data were processed

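RNA-seq of liver from 6 F1 males and 4 inbred mice was analysed, with groups from the sample records. The authors deposited raw counts per Ensembl gene and quantile-normalized RPKM values. According to the processing notes of the submitters, Picard 1.99, Trimmomatic 0.32, Bowtie2 2.2.6 and TopHat2 2.10 were used, whereas the paper names BWA. The molecule field reads polyA RNA, the protocol removal of ribosomal RNA. Both tables hold 3 columns of no sample, which were not used. Symbols and positions came from GENCODE M21, which matched 40254 of the 41388 genes.

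Counts were scaled by TMM and tested with the quasi-likelihood test of edgeR 4.0.16 (R 4.3.3), adjusted by Benjamini-Hochberg over all genes tested (threshold 0.05). The F1 fit held 6 libraries and genes reaching 10 counts in 3 or more. The strain and sex comparisons came from 1 fit of all 10 libraries with 4 levels of strain or cross plus sex as terms (10 counts reached in 2 or more), and the interaction from a fit with 6 cell means, whose spread comes from the F1 males alone. The biological coefficient of variation was 15.9% in the F1 fit and 17.7% in the strain fit. Intervals are those of the fit at 95%. The p-values of the F1 fit measure the spread between single animals. In the strain and sex fit the spread comes mostly from the F1 males, because each inbred strain holds 1 animal of each sex. Ratios within a library were compared by an exact permutation test.

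The members and all lists were chosen with earlier results of these data known. Named genes are all members, the genes past the threshold on the pathway lists and those with the smallest p of each list. FXR, SHP, Cish and Cux2 in the interaction, Slco1a5 and the nearest profiles were named for their role, and genes that only an alternative called after their values were seen. Promoters came from the RefSeq table (250 bases before to 50 after the start), and transcripts were compared with BLAST 2.17.0. Replicate numbers of the F1 males are numbers only: the deviations of same-numbered libraries correlated at 0.30, -0.06 and 0.10. Scripts were tested on simulated data. Alternatives were other scalings, no filter, DESeq2 1.42.0, limma 3.58.1 on log2(RPKM + 1) and log2(RPKM + 0.1), other sets of libraries, a replicate block and omission of single libraries. The fits on the inbred females or males alone were chosen after seeing the data. Figures were drawn with matplotlib 3.10.9.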

Additional observations from a re-analysis of the deposited data

How the results depend on the processing

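Each inbred group rests on 2 animals, while every member had at least 884 counts in every library (Slco1a4 in patBFMI 2). The 24 genes called in the F1 males became 56 with scaling by library size (45 higher and 11 lower in matBFMI, against 16 and 8), 307 with DESeq2, 696 without the filter on low counts, 15 with all 10 libraries in the fit, 175 with the replicate block and 0 with each of the limma fits, and ran from 7 to 63 when 1 library was left out (7 without matBFMI 3 and 63 without patBFMI 2). In the replicate block 1 member was called, Slco1a4 (0.63, adjusted p = 0.0234), while not every library correlated best with its own number. Of the members, 2 were called in the F1 males with DESeq2 and 2 without the filter. Between strains the 1332 genes became 244 and 153 with limma (pseudocounts 1 and 0.1), 539 in females only and 811 in males only, and 536 to 1523 without 1 library. The members called there were 4 without the filter, 1 with either limma fit, 1 in females only and 1 to 3 without 1 library. Between sexes the 111 genes became 388 with DESeq2, 582 without the filter, 36 and 28 with limma and 419 in the 4 inbred libraries, and 38 to 156 without 1 library, and the members called fell to 0 with a pseudocount of 0.1. The 6 genes of the interaction became 10 with library size scaling, which moved the median log2 difference of all genes from -0.06 to -0.21, 127 with DESeq2 and 399 without the filter, and 0 to 22 without 1 library.

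Of 40 member differences 28 kept their sign in every alternative run. None of those past the threshold changed sign. Slco1b2 turned to 0.029 in the F1 males with library size scaling and to 0.010 with each limma fit, and in the sex comparison to 0.12 with limma. In females only the strain difference turned to -0.17 for Abcc2, 0.19 for Abcg8, 0.060 for Slc10a1 and 0.015 for Slco1b2, and in males only to -0.20 for Slco1a1. The interaction of Slco1a4 turned to 0.11 without the filter. Without 1 library the F1 difference of Abcg8 ran from -0.16 to 0.25 and that of Slco1b2 from -0.090 to 0.018. The strain difference then ran from -0.16 to 0.32 for Abcc2, -0.39 to 0.24 for Abcg8, -0.31 to 0.10 for Slc10a1, -0.21 to 0.66 for Slco1a1 and -0.32 to 0.059 for Slco1b2. The sex difference ran from -0.044 to 0.43 for Abcc2, -0.35 to 0.030 for Abcc3, -0.30 to 0.12 for Slc10a1 and -0.23 to 0.14 for Slco1b2, and the interaction of Slco1a4 from -0.040 to 0.019. The cause was not tested.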
